A study of Mus musculus with 12 samples.

Results

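The genes described here belong to the amino acid stress response and to serine synthesis. They are 35 named mouse genes out of 27179 gene identifiers in the deposited count tables, and all 35 were found. They were chosen by symbol, with earlier results of these data known. They fall into 5 classes by function: 6 transcription factors, 7 genes of stress feedback and growth control, 8 amino acid transporters, 8 enzymes of serine and one-carbon metabolism, and 6 other enzymes of amino acid metabolism.

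The samples are cells of ALL101, a primary mouse T-ALL (acute lymphoblastic leukemia of the T lineage) of the genotype Vav-tTA;TRE-GFP-shIkaros. In this genotype the Vav promoter, active in blood cells, drives the tetracycline transactivator tTA, and tTA drives a transcript that carries both GFP and a hairpin against Ikaros (Ikzf1), a zinc-finger transcription factor of lymphocyte development. Doxycycline (Dox) blocks tTA, so the hairpin is switched off and the cells make Ikaros again. Leukemic spleen cells were flow-sorted from 3 untreated recipient mice, whose sorted cells are labelled GFPhigh, and from 3 recipient mice given Dox for 3 days, whose sorted cells are labelled GFPmid. Every mouse in both groups carried the same leukemia and the same hairpin transgene. The treatment, the loss of the hairpin and the GFP gate changed together, and no Dox-treated leukemia without the hairpin was analysed here, so their effects cannot be told apart. All 6 mice carried cells of 1 leukemia, so the p-values speak of the spread between recipients of that leukemia only. The library names of the other 5 mice name a sort for GFP, and that of untreated mouse 3 carries INJ in its place. What INJ stands for, and whether this mouse was handled otherwise, is not stated in the sources used here.

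Cells that run short of an amino acid, or whose endoplasmic reticulum is overloaded, phosphorylate the translation factor eIF2. Most protein synthesis then slows, while the mRNA of the transcription factor ATF4 is translated better. ATF4, with partners of the C/EBP family, turns on genes for amino acid uptake, for the making of asparagine, serine, glycine and proline, and for the feedback that ends the response. Serine in turn feeds the folate cycle, whose one-carbon units go into purines and thymidylate, which dividing T-ALL cells need for DNA.

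Of the 35 genes, 34 were detected well enough to be tested. After 3 days of Dox, 21 of them fell and 2 rose, and the other 11 did not pass the test (edgeR quasi-likelihood test, Benjamini-Hochberg adjusted p under 0.05 over 13134 genes). Over all tested genes, 25.2% fell and 24.8% rose, so the 21 falls of 34 stand against that background. The list was chosen with earlier results of these data known, which limits this comparison. The median log2 fold change (Dox minus untreated) was -0.69 over the 34 genes and -0.0037 over all tested genes. Values of the 3 Dox mice lay wholly below those of the 3 untreated mice for 23 of the 34 genes and wholly above for 2, where 30.9% and 30.2% of all tested genes did so. Leaving out 1 mouse at a time gave between 17 falls (without untreated mouse 1, or without Dox mouse 1) and 24 (without Dox mouse 3), and leaving out untreated mouse 3 gave 20. Levels are given as CPM, read counts scaled to a common total per mouse, with 1 value per mouse. These are bulk measurements, in which fewer cells expressing a gene and less RNA per cell cannot be told apart.

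**Figure D1:**
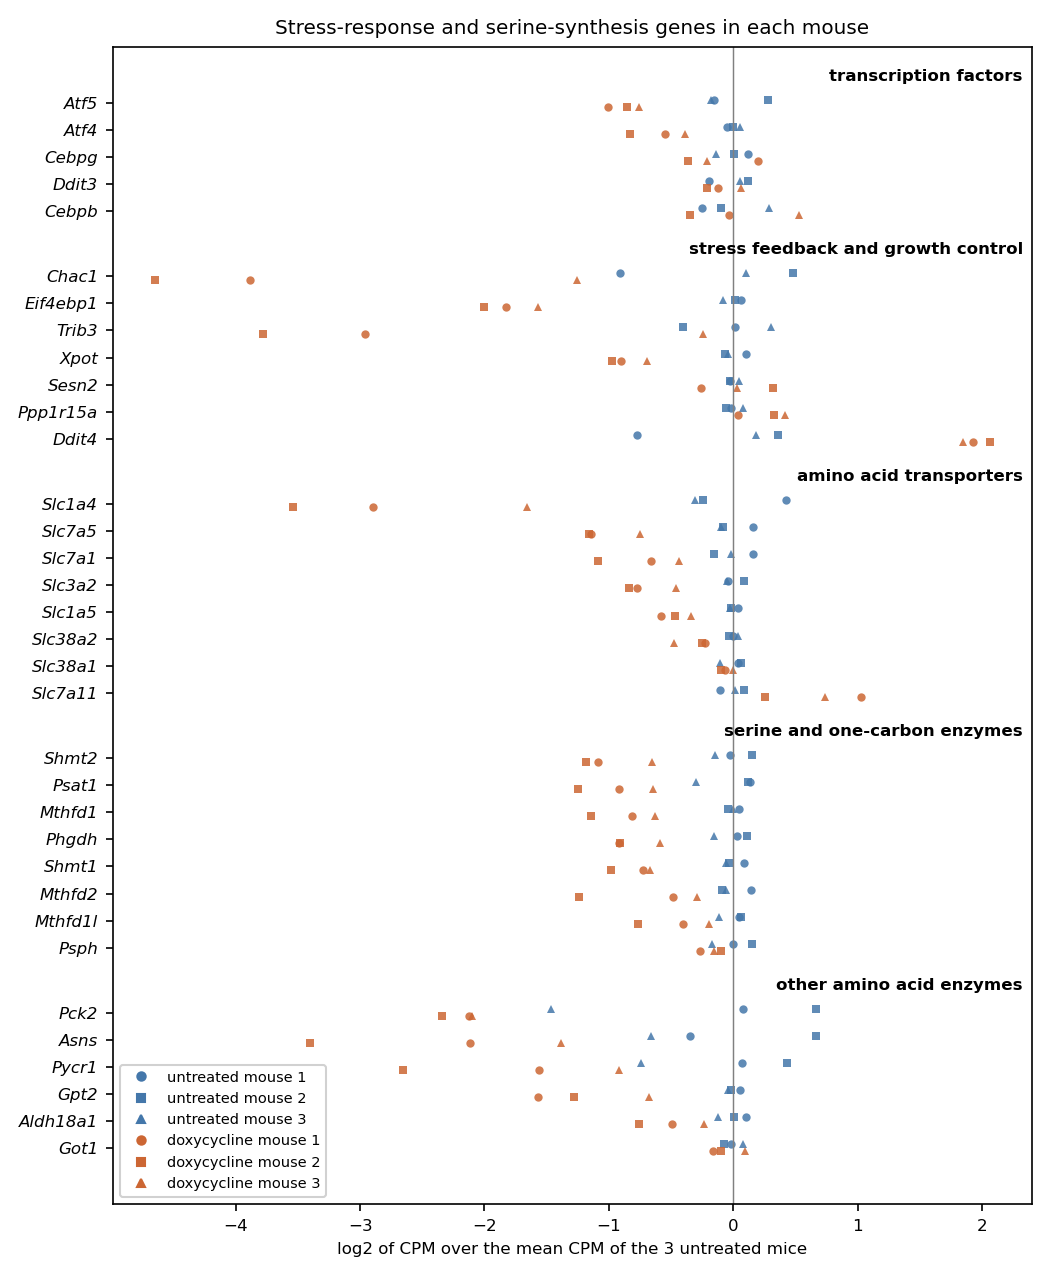
Each point is 1 mouse, plotted as log2 of its CPM over the mean CPM of the 3 untreated mice, with genes grouped by class and ordered within a class by their log2 fold change. Most Dox points lie left of the untreated points, Ddit4 and Slc7a11 lie to the right, and Dox mouse 3 is often the Dox mouse nearest to the untreated ones.

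The element that ATF4 binds together with a C/EBP partner has the core TGATGNAA, where N is any base. It was searched on both strands of the promoter windows of RefSeq (GRCm38.p6), which run from 250 bases before to 50 bases after each annotated start. Of the 31 genes with a window, 9 held the core (29.0%), against 4.51% of all 27025 genes with a window and 2.74% of the 9897 tested genes with one. The genes were listed as members of the response that ATF4 drives, so this share is not independent of that choice. It is given as a description only and was not tested. The 9 stretches follow, 5′ to 3′ on the gene's own strand, with the match in capitals, since they mark the genes that had most of the largest fold changes described further on. A match on the opposite strand shows as the reverse complement.
Asns: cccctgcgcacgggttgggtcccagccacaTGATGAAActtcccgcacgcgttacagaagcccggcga
Chac1: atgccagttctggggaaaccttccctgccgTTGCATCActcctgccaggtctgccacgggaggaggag
Pck2: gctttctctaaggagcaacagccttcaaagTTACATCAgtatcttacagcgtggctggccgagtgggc
Pycr1: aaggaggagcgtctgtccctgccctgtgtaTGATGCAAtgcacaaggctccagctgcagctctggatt
Slc1a4: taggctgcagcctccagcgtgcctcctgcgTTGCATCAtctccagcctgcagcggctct
Slc7a11: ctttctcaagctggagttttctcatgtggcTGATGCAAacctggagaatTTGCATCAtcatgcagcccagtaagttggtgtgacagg
Trib3: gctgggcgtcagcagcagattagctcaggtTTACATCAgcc
Got1: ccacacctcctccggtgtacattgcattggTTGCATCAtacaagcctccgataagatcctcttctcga
Nupr1: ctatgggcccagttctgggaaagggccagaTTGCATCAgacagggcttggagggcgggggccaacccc

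These stretches lie, in GRCm38.p6, at chr6:7693195-7693262 (minus strand) for Asns, chr2:119351019-119351086 (plus) for Chac1, chr14:55540133-55540200 (plus) for Pck2, chr11:120643814-120643881 (minus) for Pycr1 and chr11:20332689-20332747 (minus) for Slc1a4. The others lie at chr3:50443623-50443709 (minus) for Slc7a11, chr2:152344036-152344076 (minus) for Trib3, chr19:43524670-43524737 (minus) for Got1 and chr7:126625543-126625610 (minus) for Nupr1. Slc7a11 holds 2 matches, whose first bases are 66 and 47 bases before its start. The match of Asns begins 23 bases before the start and that of Slc1a4 4 bases before it, so that the Slc1a4 match runs across the start. In Trib3 the match lies inside the transcript, in its 5′ untranslated part, beginning 15 bases after the start. The matches of Pck2 and Pycr1 both begin 103 bases before their starts, those of Got1 and Nupr1 102 and 110 bases before, and that of Chac1 193 bases before. The version TTGCATCA, on either strand, was in windows of 6 of the 31 genes (19.4%) and in 1.03% of all genes, with the same limit from the choice of genes. A match describes the letters only. Slc7a5, Slc1a5, Slc38a1 and Eif4ebp1 had no window in the table used.

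Among the transcription factors, Atf4 and Atf5 fell and the 3 other factors tested did not pass, where 25.2% of all tested genes fell. Atf4, the central factor of the response (chr15:80255184-80257545 in GRCm38), stood at 171, 176 and 183 CPM in untreated mice 1, 2 and 3 and at 121, 99.2 and 135 CPM in Dox mice 1, 2 and 3. All Dox values lay below all untreated values, and the log2 fold change was -0.58 ± 0.11 (SE, adjusted p = 0.0027), a 1.49-fold lower level. Atf5, a related factor that responds to the same stress, stood at 29.3, 39.6 and 28.8 CPM untreated and at 16.2, 18.0 and 19.3 CPM with Dox, a log2 fold change of -0.87 ± 0.14 (adjusted p = 0.0013). Atf4 and Atf5 were the only 2 of the 5 tested factors whose groups did not overlap. Of all tested genes, 30.9% lay wholly lower and 30.2% wholly higher with Dox.

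The stress-induced partner factor CHOP, encoded by Ddit3, stood at 10.3 to 12.8 CPM untreated and 10.2 to 12.3 CPM with Dox (log2 fold change -0.09 ± 0.13, adjusted p = 0.602). Cebpb, which binds beside ATF4, had a log2 fold change of 0.10 ± 0.25 (adjusted p = 0.766), and its sign turned without untreated mouse 1 or without Dox mouse 3. Cebpg, the C/EBP protein that pairs with ATF4, had -0.11 ± 0.15 (adjusted p = 0.570). Nupr1, a small stress-induced chromatin protein, had at most 2 counts in any mouse and was not tested. Exons of other genes on the opposite strand overlap Atf5, Cebpb, Cebpg and Ddit3, and the strand setting of the counting is not given in the sources used here, so their counts may include reads of those genes, as may those of Cebpg for the same-strand gene Gm44836.

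Of the 7 genes of stress feedback and growth control, Eif4ebp1 and Xpot fell, Ddit4 rose, and the other 4 did not pass. Of all tested genes, 25.2% fell and 24.8% rose, so these counts do not set the class apart. Eif4ebp1 encodes 4E-BP1, which holds back cap-dependent translation until mTORC1 phosphorylates it. It stood at 35.8, 34.6 and 32.3 CPM untreated and at 9.64, 8.53 and 11.6 CPM with Dox. This 3.46-fold lower level (log2 fold change -1.79 ± 0.12, adjusted p = 4.7e-05) had the smallest p of the 35 genes. Xpot, the exporter of tRNA from the nucleus, stood at 164, 145 and 149 CPM untreated and at 81.6, 77.8 and 94.3 CPM with Dox (log2 fold change -0.85 ± 0.09, adjusted p = 0.00022). In both genes the gap between the groups was wider than the spread within either.

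Ddit4 encodes REDD1, an inhibitor of mTORC1 that is induced by several stresses and by glucocorticoids. Its level was 84.4, 185 and 163.9 CPM in the untreated mice and 551, 605 and 520.2 CPM in the Dox mice. The untreated mice were the more variable group, with untreated mouse 1 lowest, and every Dox mouse exceeded every untreated mouse. The log2 fold change was 1.95 ± 0.30 (adjusted p = 0.0035), a 3.87-fold rise, and the adjusted p was 0.085 without untreated mouse 3 and Dox mouse 2 together.

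Chac1 and Trib3 were low and split the Dox mice. Chac1 encodes an enzyme that breaks down glutathione, and it stood at 2.08, 5.45 and 4.19 CPM untreated and at 0.265, 0.155 and 1.63 CPM with Dox. Trib3, a pseudokinase that restrains ATF4 and AKT signalling, stood at 2.78, 2.08 and 3.39 CPM untreated and at 0.353, 0.2 and 2.32 CPM with Dox. Dox mouse 3 lay far above the other 2 Dox mice in both genes, and for Trib3 it lay above untreated mouse 2. With all mice the log2 fold changes were -2.49 ± 0.86 for Chac1 (adjusted p = 0.054) and -1.5 ± 0.85 for Trib3 (adjusted p = 0.193). Without Dox mouse 3 they were -4.23 (adjusted p = 0.0018) and -3.32 (adjusted p = 0.0012), so that both passed. Chac1 also passed with DESeq2 (adjusted p = 0.0012), with limma-voom (0.011) and in the second sequencing run alone (0.023). Trib3 passed with limma-voom (log2 fold change -2.24, adjusted p = 0.029) and not with DESeq2 (0.069).

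Ppp1r15a, the subunit that directs a phosphatase to eIF2 and ends the response, stood at 11.5 to 12.6 CPM untreated and at 12.3 to 16.0 CPM with Dox. Its log2 fold change was 0.27 ± 0.12 (adjusted p = 0.10), and without Dox mouse 1 it passed at 0.37 (adjusted p = 0.034). Sesn2, a leucine sensor that restrains mTORC1, had 0.05 ± 0.15 (adjusted p = 0.791), with a sign that turned without Dox mouse 2. An exon of Tulp2 on the opposite strand overlaps Ppp1r15a.

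Of the 8 amino acid transporters, 6 fell, 1 rose and 1 did not pass, where 25.2% of all tested genes fell and 24.8% rose. Slc7a5 and Slc3a2 encode the light and heavy chain of LAT1, the carrier of leucine and other large neutral amino acids into activated and leukemic T cells. Slc7a5 stood at 318, 269 and 266 CPM untreated and at 129, 127 and 169.5 CPM with Dox, a log2 fold change of -1.01 ± 0.13 (adjusted p = 0.00065). Slc3a2, which also serves other light chains, stood at 165, 181 and 164 CPM untreated and at 99.6, 94.8 and 124 CPM with Dox (log2 fold change -0.68 ± 0.10, adjusted p = 0.0011). Both chains fell without overlap between the groups. Per kilobase of gene length, the level of Slc7a5 was 1.41 ± 0.189 times that of Slc3a2 in untreated mice and 1.12 ± 0.0332 times with Dox (SD, n = 3). This ratio was lower in every Dox mouse than in any untreated mouse (exact permutation test, two-sided, p = 0.1, the smallest that 3 against 3 mice can give; 0.15 after adjustment over 3 ratios that were chosen after their values were seen).

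The largest fall among these 8 transporters was that of Slc1a4, a sodium-dependent carrier of alanine, serine and cysteine. Its level was 17.0, 10.7 and 10.3 CPM untreated and 1.71, 1.09 and 4.0 CPM with Dox. The groups lay far apart, with Dox mouse 3 highest among the Dox mice, and the log2 fold change was -2.48 ± 0.50 (adjusted p = 0.0079), a 5.56-fold lower level. Slc1a5, its close relative that carries glutamine, stood at 122.5 to 128 CPM untreated and at 83.5 to 98.3 CPM with Dox, a log2 fold change of -0.46 ± 0.08 (adjusted p = 0.0015).

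Slc7a1, the main carrier of arginine and lysine, stood at 283, 228 and 250.2 CPM untreated and at 160.3, 119.8 and 188 CPM with Dox (log2 fold change -0.70 ± 0.17, adjusted p = 0.011). Of the 2 sodium-coupled neutral amino acid carriers, Slc38a2, which responds to amino acid shortage, fell by 0.31 ± 0.08 on the log2 scale (adjusted p = 0.012), from 639 to 669 CPM untreated to 469 to 559.6 CPM with Dox. Its relative Slc38a1 stood at 752 to 845 CPM untreated and 754 to 809.6 CPM with Dox (log2 fold change -0.05 ± 0.07, adjusted p = 0.549).

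Slc7a11, the light chain of the cystine-glutamate exchanger that supplies cysteine for glutathione, rose from a low level. It stood at 3.15, 3.61 and 3.43 CPM untreated and at 6.94, 4.06 and 5.66 CPM with Dox. The groups did not overlap, although Dox mouse 2 lay close to the untreated mice. The log2 fold change was 0.70 ± 0.22 (adjusted p = 0.025). This call was lost without any of the 3 untreated mice (adjusted p = 0.082, 0.057 and 0.051 for mice 1, 2 and 3), without Dox mouse 1 (0.091) and without Dox mouse 3 (0.063), and it held without Dox mouse 2. Slc3a2 is the heavy chain of this exchanger too, and its level fell.

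Serine is made from 3-phosphoglycerate in 3 steps, by the enzymes of Phgdh, Psat1 and Psph, and Shmt1 and Shmt2 then turn it into glycine while loading a one-carbon unit onto folate. Of the 8 genes of serine and one-carbon metabolism, 6 fell and 2 did not pass, where 25.2% of all tested genes fell. Their median log2 fold change was -0.79. For 7 of the 8 the Dox values lay wholly below the untreated ones, against 30.9% of all tested genes. Phgdh, the first enzyme (chr3:98313171-98339969), stood at 195, 205 and 170.5 CPM untreated and at 100.7, 100.9 and 126 CPM with Dox, a log2 fold change of -0.80 ± 0.11 (adjusted p = 0.00071). Psat1, the second (chr19:15905123-15925059), stood at 451, 447 and 334.5 CPM untreated and at 217, 173 and 262 CPM with Dox (log2 fold change -0.92 ± 0.18, adjusted p = 0.0056). Both fell 1.74-fold or more. Psph, the last step, had overlapping groups, at 39.3 to 49.4 CPM untreated and 36.9 to 41.5 CPM with Dox (log2 fold change -0.17 ± 0.10, adjusted p = 0.173). It passed only in the comparison without untreated mouse 3 and Dox mouse 2 together (adjusted p = 0.031). Whether Psph differs from the first 2 enzymes in its change was not tested.

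The cytosolic and the mitochondrial serine hydroxymethyltransferase both fell. Shmt1, the cytosolic form, stood at 162, 149 and 147 CPM untreated and at 92.2, 77.2 and 96.2 CPM with Dox (log2 fold change -0.79 ± 0.09, adjusted p = 0.00035). Shmt2, the mitochondrial form, stood at 450.4, 509 and 414 CPM untreated and at 215, 200.9 and 291 CPM with Dox (log2 fold change -0.96 ± 0.15, adjusted p = 0.0017). Per kilobase, Shmt2 stood at 2.69 ± 0.312 times Shmt1 untreated and 2.38 ± 0.311 times with Dox, with overlapping groups (exact permutation test, two-sided, p = 0.4, n = 3 per group).

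The genes that carry the one-carbon unit onward are Mthfd1 in the cytosol and Mthfd2 and Mthfd1l in the mitochondrion. Mthfd1 stood at 363, 342 and 351 CPM untreated and at 200.1, 159.5 and 228 CPM with Dox, a log2 fold change of -0.85 ± 0.12 (adjusted p = 0.00093). Mthfd1l, which releases formate from the mitochondrion, fell from 168 to 189.8 CPM untreated to 107 to 159 CPM with Dox (log2 fold change -0.44 ± 0.14, adjusted p = 0.030). This call was lost without untreated mouse 1 (adjusted p = 0.085), untreated mouse 2 (0.086) or Dox mouse 1 (0.075), and the log2 fold change was -0.29 without Dox mouse 2. The ratio of Mthfd1l to Mthfd1 per kilobase was 0.397 ± 0.0294 untreated and 0.525 ± 0.0102 with Dox, higher in every Dox mouse (exact permutation test, two-sided, p = 0.1, the smallest possible; 0.15 after adjustment over the 3 ratios).

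Mthfd2, an enzyme abundant in embryonic and tumour cells, stood at 153, 129.7 and 133 CPM untreated and at 99.1, 58.7 and 113 CPM with Dox. The groups did not overlap, Dox mouse 2 was the lowest, and the log2 fold change of -0.62 ± 0.24 did not pass (adjusted p = 0.078). It passed without Dox mouse 2 (-0.37, adjusted p = 0.013), without Dox mouse 3 (-0.81, adjusted p = 0.035), with DESeq2 (adjusted p = 0.0051) and with limma-voom (adjusted p = 0.034). Exons of other genes on the opposite strand overlap Psph, Shmt1, Shmt2 and Mthfd1.

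**Figure D2:**
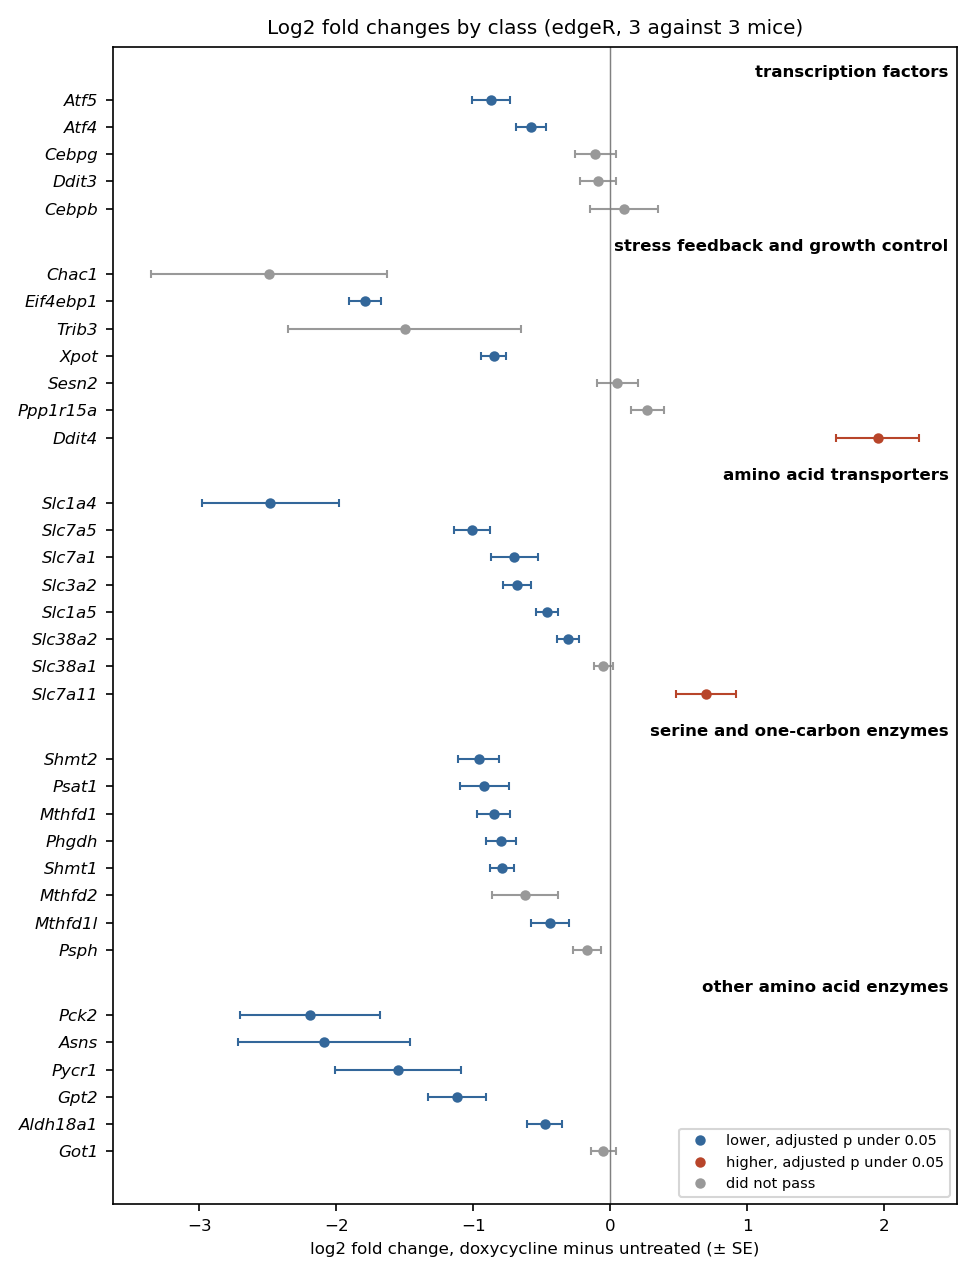
Points are log2 fold changes (Dox minus untreated, edgeR, 3 against 3 mice) and bars are their standard errors, by class. The 21 genes called lower lie left of 0, the 2 called higher are Ddit4 and Slc7a11, and the widest bars belong to Chac1 and Trib3.

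Of the 6 other enzymes of amino acid metabolism, 5 fell, with a class median of -1.34, and Got1 did not pass. Of all tested genes, 25.2% fell. Asns makes asparagine, the amino acid whose removal by asparaginase is used to treat acute lymphoblastic leukemia. It stood at 37.8, 76.2 and 30.4 CPM untreated and at 11.1, 4.55 and 18.4 CPM with Dox. The groups did not overlap, but the spread within each was wide, and the log2 fold change was -2.09 ± 0.63 (adjusted p = 0.042), a 4.25-fold lower level. Leaving out any 1 mouse other than Dox mouse 3 lost the call of Asns, with adjusted p from 0.055 (without untreated mouse 3) to 0.125 (without untreated mouse 2).

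Pck2, the mitochondrial enzyme that makes phosphoenolpyruvate, stood at 8.52, 12.8 and 2.93 CPM untreated and at 1.85, 1.60 and 1.89 CPM with Dox. Untreated mouse 3 lay close to the Dox mice, and the log2 fold change was -2.19 ± 0.51 (adjusted p = 0.012, or 0.059 without Dox mouse 2). An exon of Gm10876 on the opposite strand overlaps Pck2. Pycr1, which completes the making of proline in the mitochondrion, stood at 3.39, 4.34 and 1.93 CPM untreated and at 1.09, 0.511 and 1.70 CPM with Dox (log2 fold change -1.55 ± 0.46, adjusted p = 0.024). That call was lost without untreated mouse 1 (adjusted p = 0.065), untreated mouse 2 (0.081) or Dox mouse 1 (0.075).

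Asns, Pck2 and Pycr1 shared an order of the untreated mice, with mouse 2 highest and mouse 3 lowest. Atf5, Slc3a2, Slc38a1, Phgdh, Psph, Shmt2 and Mthfd1l had this order too, and its share over all tested genes was not counted. Mpo, a defining gene of granulocyte precursors, had the same order, at 4.39, 6.48 and 0.965 CPM untreated and 0.764, 0.955 and 0.253 CPM with Dox. The order was shared by 7 of the 10 myeloid markers and not by Lyz2, Itgam and Fcgr3. Of the 10 myeloid markers, 9 were tested. With Dox 4 were higher and 3 lower, against 24.8% and 25.2% of all tested genes. The summed level of the 10 was 23.1 to 43.6 CPM untreated and 65.3 to 86.9 CPM with Dox, and none was under 3 counts in every mouse. The part of other cells in the levels of Asns, Pck2 and Pycr1 was not tested.

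Gpt2, which links alanine to glutamate in the mitochondrion, was steadier. Its level was 12.5, 11.9 and 11.7 CPM untreated and 4.06, 4.95 and 7.52 CPM with Dox (log2 fold change -1.12 ± 0.21, adjusted p = 0.0031). Aldh18a1, the first enzyme of proline synthesis, stood at 121 to 141 CPM untreated and at 77.7 to 112 CPM with Dox (log2 fold change -0.48 ± 0.13, adjusted p = 0.017). Without untreated mouse 1 its adjusted p was 0.058, and without Dox mouse 1 it was 0.057. Got1, the cytosolic aspartate aminotransferase, stood at 70.6 to 78.5 CPM untreated and at 66.1 to 79.1 CPM with Dox (log2 fold change -0.05 ± 0.09, adjusted p = 0.641). Because 4 of these 5 calls could be lost with 1 mouse, the class count went down to 2 of 6 without untreated mouse 1 or without Dox mouse 1, and to 3 without untreated mouse 2 or without Dox mouse 2.

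**Figure D3:**
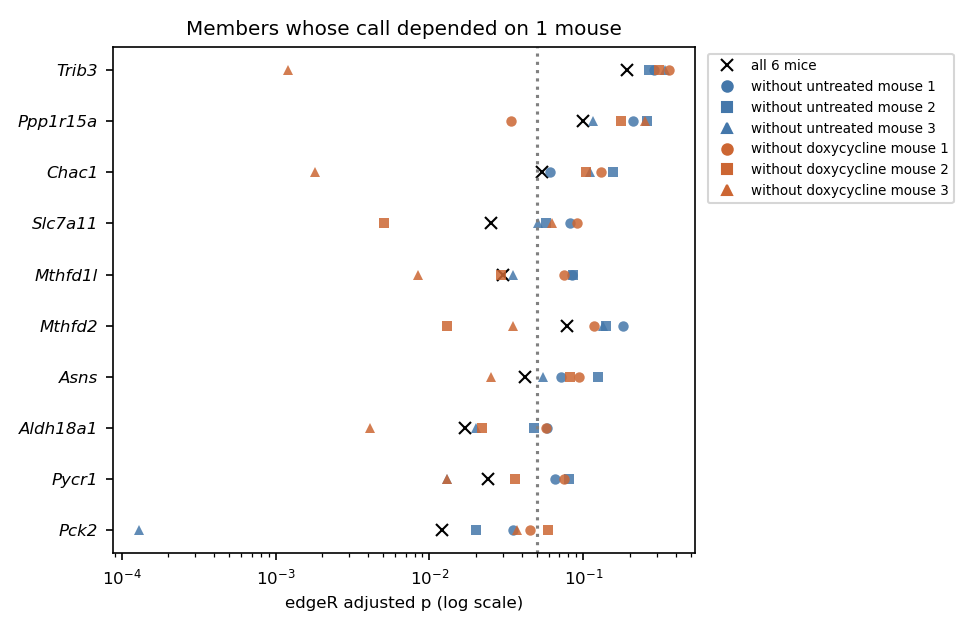
Each row is 1 of the 10 genes whose call changed when 1 mouse was left out, with the edgeR adjusted p on a log axis and the threshold of 0.05 as a dotted line. Crosses give all 6 mice and the other marks 1 mouse left out each. Chac1 and Trib3 move far to the left without Dox mouse 3.

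The 3 Dox mice did not fall equally. Among the 21 genes called lower, Dox mouse 3 had the highest of the 3 Dox levels in 20 (95.2%), and Dox mouse 2 the lowest in 16 (76.2%). Among all 3316 genes called lower in these cells, Dox mouse 3 was highest in 57.1% and Dox mouse 2 lowest in 50.3%. The Dox mouse nearest to the untreated ones was thus mostly the same for these genes. Hspa1a, a heat-shock gene used as a marker of handling, stood at 2.80 CPM in Dox mouse 2 and at most 0.345 CPM in the other 5, and its part in these results was not tested. Of the 9 handling markers 8 were tested and 3 rose, where 24.8% of all tested genes rose. The sum of the 9 was lower in each untreated mouse (92.5 CPM in the lowest) than in any Dox mouse (114 to 137 CPM).

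The genes with the ATF4 and C/EBP core in their promoter window included most of the largest fold changes. Of the 8 that were tested, 6 had a log2 fold change of -1.5 or lower, a value chosen after the data were seen: Chac1, Slc1a4, Pck2, Asns, Pycr1 and Trib3. Only 4 of these 6 passed the test, since Chac1 and Trib3 did not, and Trib3, at -1.5, lay at the cut itself. The other 2 were Slc7a11, which rose and holds 2 matches, and Got1, which did not pass. The median over the 8 was -1.82. Over the 22 tested genes whose window held no match it was -0.60, and none of the 22 reached -1.5, although 14 of them fell, among them Psat1, Phgdh, Shmt2 and Atf4 itself. Of all tested genes, 25.2% fell, and the share of them that reached -1.5 was not counted. Eif4ebp1, at -1.79, had no window, and Ddit4, which rose by 1.95, had a window without a match. Genes with a match were also mostly low ones: Chac1, Trib3, Pycr1, Pck2, Slc1a4 and Slc7a11 had untreated means of 12.7 CPM (Slc1a4) or lower. The difference between the genes with and without a match was not tested.

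Levels spanned a wide range. Among the 34 tested genes Shmt2 was the highest in untreated mice, at 198.5 ± 20.9 CPM per kilobase (SD, n = 3), followed by Psat1 at 165 ± 26.5, Slc38a2 at 141 ± 3.30 and Mthfd1 at 106 ± 3.14 on the same scale. Atf4 stood at 102 ± 3.65 and Phgdh at 102 ± 9.47 CPM per kilobase, which do not differ beyond their spread. Slc7a11 was the lowest, at 0.368 ± 0.0252 CPM per kilobase. With Dox, Ddit4 went from the 8th to the 1st place, from 85.7 ± 31.5 to 331.5 CPM per kilobase, and Shmt2 from the 1st to the 3rd, at 102 CPM per kilobase.

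**Figure D4:**
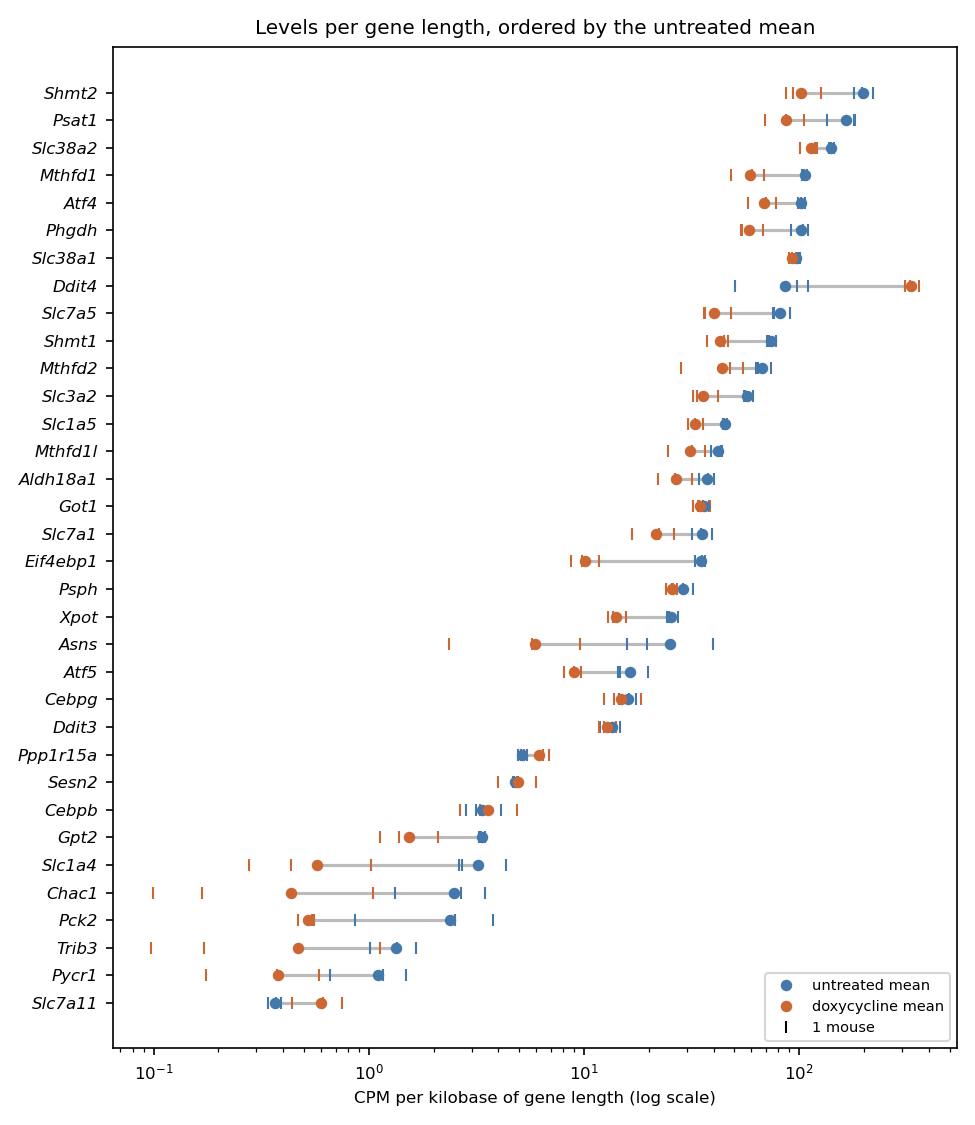
Levels in CPM per kilobase of gene length on a log axis, with the mean of each group as a dot and each mouse as a tick, ordered by the untreated mean. Shmt2 and Psat1 are the highest in untreated mice and Ddit4 the highest with Dox.

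The machinery upstream of ATF4 was read from 17 genes of eIF2, its kinases, its exchange factor eIF2B and related factors. The related factors were Eif2a, Ppp1r15b, Gcn1, Abcf1 and Impact. All 17 were tested, and 12 fell and 1 rose, against 25.2% and 24.8% of all tested genes, with a median of -0.37. Eif2b3, a subunit of eIF2B, had the smallest p, at 54.5 ± 3.25 CPM untreated and 33.0 ± 4.2 CPM with Dox (log2 fold change -0.72 ± 0.10, adjusted p = 0.00082). Eif2a, an initiation factor outside the eIF2 complex itself, had -0.39 ± 0.07 (adjusted p = 0.0020), Eif2b5 had -0.37 ± 0.07 (adjusted p = 0.0023), and Gcn1, which activates the kinase GCN2, had -0.43 ± 0.08 (adjusted p = 0.0031). The 4 kinases differed. Eif2ak1, which encodes the heme-regulated kinase HRI, stood at 97.3 ± 2.56 CPM untreated and 95.8 ± 4.54 CPM with Dox and did not pass (log2 fold change -0.02 ± 0.07, adjusted p = 0.806). Eif2ak2, which encodes PKR, the sensor of double-stranded RNA, had -0.75 ± 0.15 (adjusted p = 0.0045). Eif2ak4, which encodes GCN2, the sensor of uncharged tRNA, had -0.39 ± 0.10 (adjusted p = 0.014), and Eif2ak3, which encodes PERK, the sensor of the endoplasmic reticulum, was the 1 gene that rose (0.43 ± 0.10, adjusted p = 0.0077).

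Cytosolic aminoacyl-tRNA synthetases, many of which are known targets of ATF4, load amino acids onto tRNA. Of the 20, 18 fell, against 25.2% of all tested genes, and Aars and Qars did not pass. Eprs, the synthetase for glutamate and proline, stood at 485 ± 12.2 CPM untreated and at 309 ± 25.9 CPM with Dox (log2 fold change -0.65 ± 0.08, adjusted p = 0.00034). The others with the smallest p were Tars for threonine (-0.50 ± 0.07, adjusted p = 0.00098), Gars for glycine (-0.62 ± 0.09, adjusted p = 0.0011) and Rars for arginine (-0.64 ± 0.10, adjusted p = 0.0011). The median over the 20 was -0.52.

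Of 16 further genes that have been tied to ATF4, 11 were tested. Among these 3 were higher and 4 lower, against 24.8% and 25.2% of all tested genes, with a median of -0.05. Gadd45a, which slows the cell cycle after stress, rose from 4.73 ± 0.460 to 17.7 ± 1.34 CPM (log2 fold change 1.90 ± 0.13, adjusted p = 3.9e-05). Hmox1, the heme oxygenase, rose from 7.46 ± 0.346 to 20.4 ± 4.19 CPM (1.45 ± 0.16, adjusted p = 0.00024). Cbs, the first enzyme from homocysteine to cysteine, fell from 1.20 ± 0.310 CPM to 0.0571 CPM, which is at or under the level of 3 counts (adjusted p = 0.00015), and Lonp1, a mitochondrial protease, had -0.47 ± 0.07 (adjusted p = 0.00071). Atf3, Vldlr, Gdf15, Fgf21 and Adm2 were too low to be tested.

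Around the folate cycle, 22 further genes were listed and 20 tested. Among these 13 fell and 2 rose, against 25.2% and 24.8% of all tested genes, with a median of -0.42. Slc19a1, the carrier that brings folate and methotrexate into the cell, went from 56.8 ± 4.31 to 29.7 ± 1.43 CPM (log2 fold change -0.93 ± 0.08, adjusted p = 0.00011). Sfxn1, the carrier of serine into mitochondria, had -0.79 ± 0.10 (adjusted p = 0.00053). Gart and Atic, which use formyl-folate to build purines, had -0.71 ± 0.08 (adjusted p = 0.00032) and -0.83 ± 0.10 (adjusted p = 0.00037). Mthfs and Aldh1l1, both enzymes that act on formyl-folate, rose (1.63 ± 0.29, adjusted p = 0.0021, and 0.61 ± 0.13, adjusted p = 0.0043).

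Amino acid carriers outside the 8 above were mixed. Of 25 listed, 17 were tested. Among these 7 rose and 5 fell, against 24.8% and 25.2% of all tested genes, with a median of 0.05. Slc36a1 and Slc36a4, proton-coupled carriers of which the first sits on lysosomes, rose by 1.34 ± 0.10 (adjusted p = 6.6e-05) and 0.92 ± 0.15 (adjusted p = 0.0015) on the log2 scale. Slc38a3, a glutamine carrier, went from 3.75 ± 0.466 to 0.363 ± 0.169 CPM (log2 fold change -3.33 ± 0.32, adjusted p = 0.00016), and Slc16a10, a carrier of aromatic amino acids, from 76.4 ± 10.4 to 37.9 ± 5.20 CPM (-1.01 ± 0.13, adjusted p = 0.00060).

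**Figure D5:**
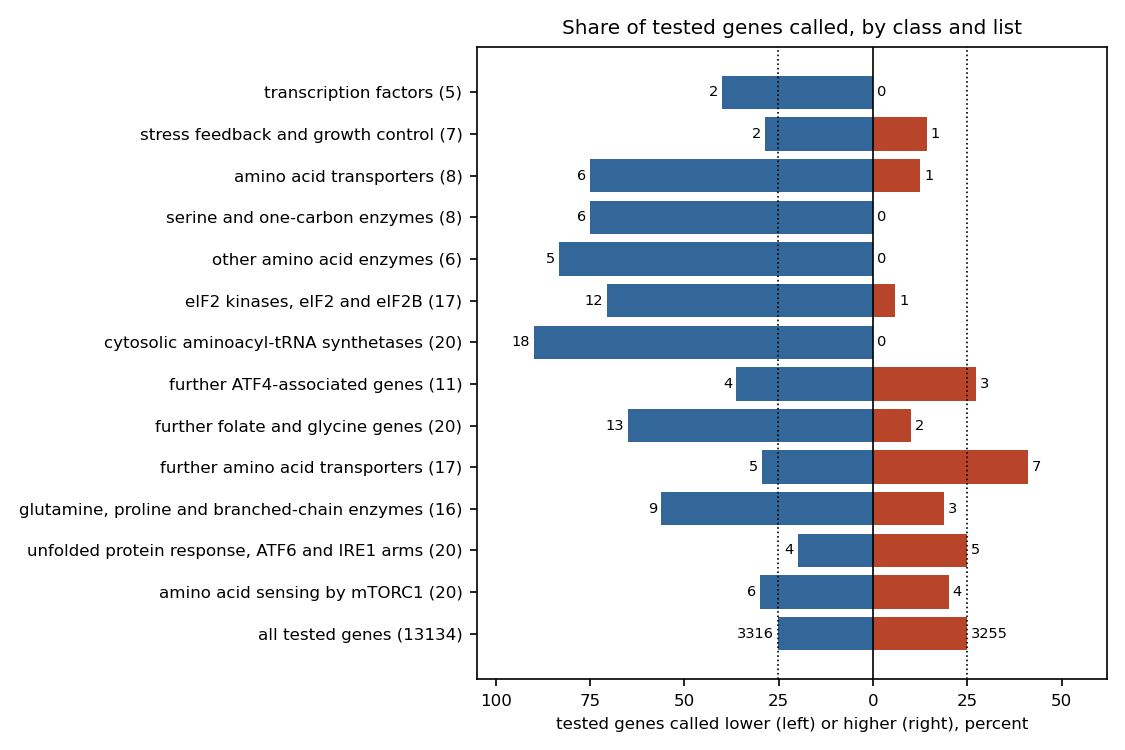
Bars give the percent of tested genes called lower (left) or higher (right) at an adjusted p under 0.05 in each class and list, with the number of genes called at the bar's end and the number tested in brackets. Dotted lines mark the shares over all 13134 tested genes, 25.2% lower and 24.8% higher, and the synthetases have the longest bar to the left, with 18 of 20.

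Total counts were 29904744 to 44949303 per mouse, at which 1 CPM is 29.9 to 44.9 counts, so that genes such as Trib3 and Chac1 rested on 9 and 7 counts in their lowest mouse. Ikzf1, the target of the hairpin, stood at 149.7 to 159 CPM untreated and at 1438 to 1523 CPM with Dox (log2 fold change 3.27 ± 0.07, adjusted p = 1.2e-07), in the direction of the labels in all 6 mice. Cd3d and Cd3e, defining genes of T cells, stood at 305.8 CPM or more in every mouse, and the 11 T-lineage markers summed to 5290 to 5510 CPM untreated and 7420 to 8900 CPM with Dox, with 7 higher and 1 lower. Of the B-lineage markers, Ms4a1, Pax5, Blk and Ebf1 were under 3 counts in every mouse, and the sum of 75.1 to 85.7 CPM untreated and 57.6 to 70.0 CPM with Dox came mostly from Sdc1. Of the 8 erythroid markers 4 were higher and 1 lower, with sums of 545 to 675 CPM untreated and 462 to 597 CPM with Dox, mostly of Tfrc, which growing cells express. Of the 8 endothelial and stromal markers 4 were tested, with 3 higher and 1 lower. Their sums were 342 to 413 CPM untreated and 359 to 366 CPM with Dox, over all 8, and Col3a1 and Dcn were under 3 counts in every mouse. These marker counts stand beside 24.8% higher and 25.2% lower over all tested genes. The part of other cell types in the results above was not tested.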

How the data were processed

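RNA was sequenced from sorted T-ALL cells of 3 untreated and 3 Dox-treated mice, with 2 sequencing runs per RNA. The values the authors deposited are raw read counts by Entrez gene identifier, with a gene length in bases, per the file headers. The submitters' processing notes name CASAVA 1.8.1, featureCounts and the mm10 build. The aligner is not given in the sources used here, nor are the annotation and the strand setting. All 12 library tables equalled the deposited series table.

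Both runs of a mouse were added up, so n counts mice. Identifiers were named from a RefSeq table (25275 of 27179, 93.0%). The quasi-likelihood F test of edgeR 4.0.16 (R 4.3.3) was fitted to the 13134 genes that filterByExpr kept, with robust dispersions and TMM scaling, and p-values were adjusted over all of them (Benjamini-Hochberg). CPM stands for counts per 1e6 TMM-scaled counts. Each SE was derived from the fold change and its F. The biological coefficient of variation was 13.9%, and 3 counts, the limit that a count of 0 allows, are 0.0667 to 0.10 CPM (counting error only). The test was checked on simulated data. Alternatives were DESeq2 1.42.0, limma-voom (limma 3.58.1), other scalings and filters, each run alone, a replicate block and mice left out.

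The genes and lists were chosen with earlier results of these data known. Values per mouse are given for Atf4 and for each gene with an adjusted p under 0.05 and at least a 1.5-fold change, and up to 4 genes with the smallest p are named per further list. Others (Aars, Qars, Eif2ak1, Eif2ak2, Eif2ak3, Eif2ak4, Mthfs, Aldh1l1, Mpo, Hspa1a, Cd22, and per-mouse values of Trib3, Chac1 and Mthfd2) were chosen after their values were seen. Protein identity between related members was planned and not run. Opposite-strand overlaps are of GENCODE vM21 exons. A result for 1 listed marker is not reported here.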

Additional observations from a re-analysis of the deposited data

How the results depend on the processing

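Over 18 alternatives, 17 of the 34 tested members kept their direction and their side of the threshold under each. Of 612 values (34 members by 18 alternatives), 558 did so, 27 lost the call, 19 gained it and 8 changed sign. The number of members that fell was 17 to 24 with 1 mouse left out and lay within 1.5 times the 21 reported under each alternative. The number that rose was 2, and it was 1 in the first sequencing run alone, 1 with the replicate block, 1 without untreated mouse 3 and Dox mouse 2, 1 to 2 with 1 mouse left out, and 3 in the second sequencing run alone, where Ppp1r15a reached an adjusted p of 0.050. The 8 changes of sign were of members that passed in neither fit. With 1 mouse left out, Cebpb ranged from -0.18 to 0.29 (below 0, at -0.02 and -0.18, without untreated mouse 1 or Dox mouse 3), Cebpg from -0.29 to 0.02 (above 0 without Dox mouse 2), Got1 from -0.12 to 0.0033 (above 0 without Dox mouse 1) and Sesn2 from -0.09 to 0.18 (below 0 without Dox mouse 2). Without untreated mouse 3 and Dox mouse 2 together, Ddit3 was at 0.01, Got1 at 0.02 and Sesn2 at -0.07. Their cause was not tested. The replicate numbers pair mice only by number: deviations of same-numbered mice from their group means correlated at 0.186, -0.016 and -0.123, and untreated mouse 3 correlated best with Dox mouse 2 (0.2). With the replicate block 21 members were lower and 1 higher, but not the same ones: Asns (adjusted p = 0.117), Pycr1 (0.081), Mthfd1l (0.055) and Slc7a11 (0.051) lost the call, and Chac1 (0.040), Mthfd2 (0.041) and Trib3 (0.049) became lower. Depth limits Trib3, Chac1 and Pycr1 most, whose lowest mouse had 9, 7 and 23 counts.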

Other observations

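Enzymes of glutamine, proline, polyamine and branched-chain amino acid metabolism mostly fell, with a median log2 fold change of -0.44. Among 16 tested, 9 were lower and 3 higher, against 25.2% and 24.8% of all tested genes. Gls2 and Glul, which break down and make glutamine, went from 3.13 ± 0.542 to 0.831 ± 0.289 CPM (log2 fold change -1.90 ± 0.29, adjusted p = 0.0011) and from 29.5 ± 8.15 to 9.47 ± 2.28 CPM (-1.63 ± 0.26, adjusted p = 0.0026, SD and n = 3 per group, edgeR). Odc1, the first enzyme of polyamine synthesis, had -0.78 ± 0.13 (adjusted p = 0.0021) and Got2, the mitochondrial aspartate aminotransferase, -0.48 ± 0.08 (adjusted p = 0.0018).

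The ATF6 and IRE1 arms of the unfolded protein response run beside the PERK and ATF4 arm. They gave 5 higher and 4 lower of 20 tested, against 24.8% and 25.2% of all tested genes, with a median of -0.01. Edem1, which directs misfolded glycoproteins to degradation, rose from 597 ± 8.02 to 1255 ± 95.2 CPM (log2 fold change 1.07 ± 0.07, adjusted p = 4.5e-05). Atf6 itself had 0.93 ± 0.19 (adjusted p = 0.0057), the co-chaperone Dnajc3 0.48 ± 0.10 (adjusted p = 0.0058) and the chaperone Canx -0.40 ± 0.09 (adjusted p = 0.0074). Without untreated mouse 1 or untreated mouse 2 the 4 lower genes became 2.

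Among 20 genes of amino acid sensing by mTORC1, 4 rose and 6 fell, with a median of 0.03. Of all tested genes, 24.8% rose and 25.2% fell. Sesn1 and Sesn3, relatives of Sesn2 that also restrain mTORC1, rose by 0.88 ± 0.12 (adjusted p = 0.00062) and 0.81 ± 0.07 (adjusted p = 0.00011) on the log2 scale. Rragd, a Rag GTPase of the lysosome, went from 19.2 ± 3.99 to 4.44 ± 1.17 CPM (log2 fold change -2.10 ± 0.23, adjusted p = 0.00035), and Deptor, a subunit that inhibits mTOR, from 9.24 ± 0.347 to 3.34 ± 1.44 CPM (-1.46 ± 0.31, adjusted p = 0.0058). Without untreated mouse 1 or untreated mouse 2 the 4 higher genes became 2, and without untreated mouse 2 the 6 lower became 3.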
